A study of Mus musculus with 6 samples.

Results

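The mammalian carboxylesterases are serine hydrolases that cut carboxylic esters, thioesters and amides, and most of them work in the lumen of the endoplasmic reticulum (ER) of hepatocytes. They hydrolyse many ester drugs and environmental esters, and several also hydrolyse acylglycerols and cholesteryl esters, so that liver biology knows them both as detoxification enzymes and as lipases. In the mouse the family is expanded into clusters of similar neighbouring genes, named *Ces1* to *Ces5* with a letter for each copy. The 10 genes described here are *Ces1c*, *Ces1d*, *Ces1e*, *Ces1f*, *Ces1g*, *Ces2a*, *Ces2c*, *Ces2e*, *Ces3a* and *Ces3b*, which were chosen by name. Each was found once by its symbol among the 24421 genes of the deposited table, in which 19 carboxylesterase genes appear.

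According to the labels, livers came from C57BL/6 mice aged 21 weeks, 3 of them wild type and 3 PAI-1 heterozygous, all fed ad lib. *Pai-1* encodes plasminogen activator inhibitor 1, the main inhibitor of the plasminogen activators, and the heterozygous mice carried the null allele in every tissue, with no restriction to hepatocytes. The study's text gives the substrain as C57BL/6J and a slightly lower age. RNA was extracted from liver tissue, frozen according to the labels and kept in an RNA preservative according to the study's methods, with no sorting of cells, so each library pooled the RNA of all liver cells. The labels name the animals as male for the wild type libraries, and the study's text does so for both genotypes.

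The value used for every gene was the mean normalized count over all libraries of both genotypes, as the authors deposited it. Counts per animal also exist, under animal numbers that match no label. None of those columns could be tied to a sample of the study, so they were left out altogether, and neither a comparison of the genotypes nor a spread between mice was computed from them. The levels below are therefore pooled values with no SD and no test, and the orders among them are descriptions. The targeted gene could not serve as a check of the labels for the same reason. Level means mean normalized count per kilobase of the longest annotated protein-coding transcript. For a gene without such a transcript, the longest transcript of any type was used. A measured gene is one with a mean normalized count above 10, of which there were 12971. The median level of the measured genes with a length was 137 per kb.

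The tissue named in the labels was checked against markers. All 6 hepatocyte markers were measured, with levels from 23887 per kb for *Tat* to 1059757 per kb for *Alb*. Their summed level was 1479619 per kb, most of it from *Alb*. The summed levels of the other lists were 2841 per kb for Kupffer cells, 1298 for liver endothelium, 4057 for stellate cells, 933 for cholangiocytes, 3259 for enterocytes, 308 for adipocytes, 1300 for neutrophils and blood, and 278 for pancreas acinar cells. The blood and pancreas sums lack main markers, since *Hba-a1*, *Hbb-bs* and *Amy2a5* are listed at 0 and *Ly6g* is not among the genes used, and *Alas2* alone gave 1048 per kb of the blood sum. *Fabp2* alone, at 3169 per kb, made up nearly all of the enterocyte sum. *Dcn* at 2366 and *Ecm1* at 1425 per kb made up most of the stellate cell sum, and *Spp1* at 776 per kb most of the cholangiocyte sum. In whole liver, the number of cells of a type and the amount of RNA in each cannot be told apart.

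Most carboxylesterases stay in the ER because their last residues end in a histidine, any residue, glutamate and leucine, a variant of the signal that the KDEL receptors retrieve. The ends of the coding sequences are shown because they divide the members into 3 classes that the choice by name did not use. Each line gives the last 30 bases of the coding sequence of the longest coding transcript in GENCODE M21, with the last 4 codons before the stop codon in capitals.
Ces1d: ccatcccacagggaaCATGTTGAGCTCtga
Ces1e: caactgccgacagaaCACACTGAGCTGtga
Ces1f: caaccccagccatacCACAATGAGCTGtga
Ces1g: tcatcccatagggaaCATGTTGAACTGtga
Ces2a: ggttctcaggacaagCATGCAGAGCTGtag
Ces2c: gcttctcaggacaagCACAGGGAGCTTtag
Ces2e: gggtctcaggagaggCACAAAGAGTTGtag
Ces3a: agaagcaggaaagttCCAGAGGAGCTCtga
Ces3b: agaagcaggaaagttCCAGAGGAGCTCtga
Ces1c: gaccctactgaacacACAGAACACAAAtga
In 7 members the capitals read as codons for histidine, any residue, glutamate and leucine. *Ces3a* and *Ces3b* share the same 30 bases and carry a proline codon in place of the histidine codon. *Ces1c*, the rodent plasma carboxylesterase, which is secreted into the blood, does not end in glutamate and leucine codons, although a glutamate and a histidine codon are among its last 4. Its neighbour *Ces1b*, which is not among the 10, ends in the same manner with gaccctactgagcacAGAGAACACAAAtga.

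Carboxylesterases share a catalytic serine that sits between 2 glycines with 1 residue on either side of it, and all 10 coding sequences hold such a run in the region searched. The runs are shown for 5 members because they hold every codon found just before the serine, and an exception just after it. Each line gives 27 bases with the serine codon in capitals.
Ces1d: atctttggagagTCAgcaggaggtttc
Ces1c: atctttggagagTCAtcagggggtatc
Ces2c: atttttggcgagTCTgcaggtggcaca
Ces2a: atatttggagtcTCAgcaggaggtaca
Ces3a: atcttcggtaacTCTgctggaggcatt
The serine codon was number 221 in *Ces1d* and *Ces1c*, 230 in *Ces2c*, 227 in *Ces2a* and 232 in *Ces3a*. The codon before it was gag, for glutamate, in 7 members, and gtc, for valine, in *Ces2a* and aac, for asparagine, in *Ces3a* and *Ces3b*. The codon after it was an alanine codon in 9 members and tca, for serine, in *Ces1c*.

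All 10 members were measured in these livers. Their mean normalized counts summed to 180581, which is 0.601% of the counts of all genes in the table and 97.3% of the counts of the 19 carboxylesterases. *Ces1c* and *Ces3a* lay among the highest 1% of measured genes by level, 7 of 10 members lay among the highest 5%, and the median member, with a level of 4098 per kb, was above 96.4% of measured genes. The members were chosen with earlier results of these data known, so the 97.3% and these ranks can in part restate that choice. *Ces1b*, the highest of the other carboxylesterases, was above 91.8% of measured genes. *Ces2c* stood apart from the others at the low end. *Ces1c* had a level 158 times that of *Ces2c*.

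**Figure D1:**
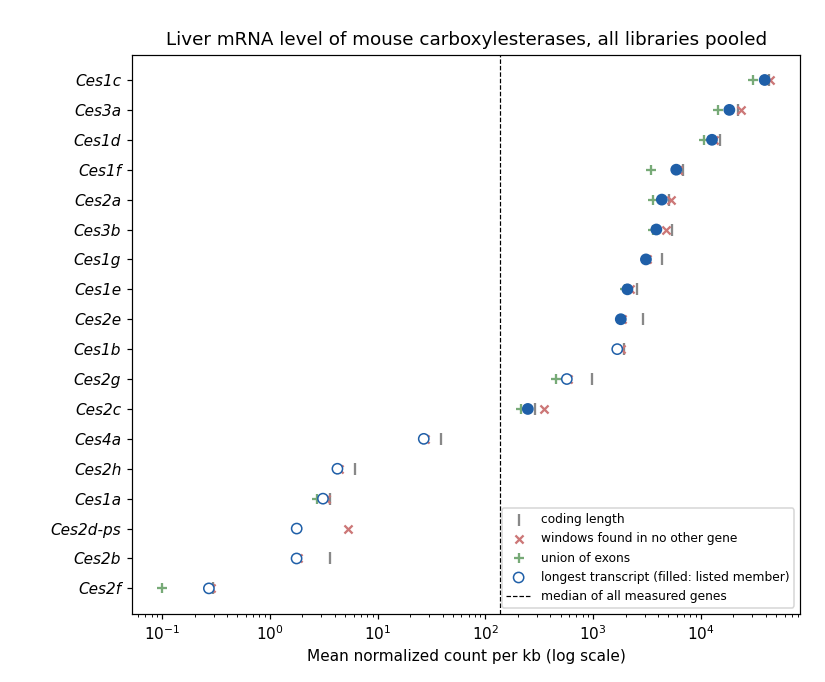
Mean normalized count per kb on a log axis for the 18 carboxylesterase genes of the table that are above 0, with filled circles for the 10 members, open circles for other family genes, and other marks for the same counts over coding length, over windows found in no other gene and over the union of exons. *Ces1c* is at the top at 39073 per kb, 9 members lie at or above 1805 per kb, and *Ces2c*, at 248 per kb, is the member nearest to the dashed median of measured genes at 137 per kb.

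The *Ces1* genes encode the esterases most related to the human liver carboxylesterase CES1. The 5 members of this subfamily had a summed level of 62811 per kb, or 68.7% of that of the 10 members. *Ces1c* had a mean normalized count of 71425 over a transcript of 1828 bases, giving 39073 per kb. It ranked 48th among measured genes, above 99.6% of them, between *Apoc3*, an apolipoprotein of triglyceride-rich lipoproteins, at 39173 per kb and *Cat*, the peroxisomal catalase, at 37109 per kb. Of the summed level of the 10 members, *Ces1c* alone held 42.7%.

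*Ces1d*, the triacylglycerol hydrolase of the hepatic ER that mobilises stored lipid for lipoprotein assembly, had a mean normalized count of 25381 and a level of 12665 per kb. It took place 3 in the family and ranked 150th among measured genes, between *Sult2a8*, a sulfotransferase, at 12683 per kb and *Fetub*, a secreted protease inhibitor, at 12661 per kb. *Ces1f*, also described as a triacylglycerol hydrolase, followed at 5904 per kb, so that *Ces1d* was 2.15 times as high. *Ces1g*, an esterase with a role in hepatic lipid handling, had a mean normalized count of 7377 and a level of 3089 per kb, and *Ces1d*, the member with the closest coding sequence to it, was 4.10 times as high.

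*Ces1e* encodes egasyn, which holds beta-glucuronidase in the ER. Its mean normalized count was 4310 and its level 2079 per kb, the lowest of the 5 *Ces1* members, and still above 93.2% of measured genes. The levels of the *Ces1* members thus ran from 2079 to 39073 per kb. The 4 that carry the codons of the ER signal were all below *Ces1c*, which does not carry them. *Ces1b* at 1673 per kb and *Ces1a* at 3.11 per kb, which are not listed members, do not carry them either. Both were below all 5 *Ces1* members.

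The *Ces2* esterases prefer small acyl groups with larger alcohols and are known for the hydrolysis of drugs, and some also hydrolyse acylglycerols. The 3 members of this subfamily had a summed level of 6389 per kb, or 6.99% of that of the 10 members. *Ces2a* had a mean normalized count of 8499 and a level of 4336 per kb. *Ces2e* had a mean normalized count of 4873 and a level of 1805 per kb, and *Ces2a* was 2.40 times as high per kb. *Ces2c* had a mean normalized count of 488 and a level of 248 per kb, above 63.5% of measured genes, and *Ces2a* was 17.5 times as high.

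The *Ces3* genes encode liver esterases of the ER. *Ces3a* had a mean normalized count of 37582 and a level of 18369 per kb, which placed it second in the family and 104th among measured genes, next to *P4hb*, the protein disulfide isomerase, at 18739 per kb. *Ces3b* had a mean normalized count of 9274 and a level of 3859 per kb. Together they held 24.3% of the summed level of the 10 members. *Ces3a* was 4.76 times as high as *Ces3b*, although their coding sequences are the most alike of any pair of members. It was 4.96 times as high when the same counts were divided by the number of windows found in no other gene. The gap was smaller over coding length, with 21939 against 5414 per kb, and over the union of exons, with 14306 against 3615 per kb.

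By the class of the coding end, the 7 members with the histidine, glutamate and leucine codons had a summed level of 30127 per kb, or 33.0% of the family sum. The 2 *Ces3* members with the proline codon had 22228 per kb, and *Ces1c* on its own had more than either class. Other carboxylesterases without glutamate and leucine codons at the end were *Ces1b* at 1673, *Ces4a* at 26.8, *Ces1a* at 3.11 and *Ces2f* at 0.272 per kb. *Ces5a*, listed at 0, also lacks them. Unlisted genes with the histidine, glutamate and leucine codons were *Ces2g* at 570, *Ces2h* at 4.23 and *Ces2b* at 1.77 per kb. The receptors that retrieve proteins with such ends were measured at 1987 per kb for *Kdelr1* and 1519 per kb for *Kdelr2*. *Kdelr3* had a level of 4.64 per kb and was not above the minimum. The ER chaperones *P4hb*, *Hsp90b1* and *Hspa5*, which themselves carry ER signals, had levels of 18739, 10274 and 7845 per kb.

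The order of the 10 members was compared with the same counts over other lengths, since the pooled means carry no spread by which neighbours could be separated. *Ces1c*, *Ces3a* and *Ces1d* kept places 1 to 3 and *Ces2c* kept the last place over the coding length, over windows found in no other gene and over the union of exons. Over coding length *Ces2a* and *Ces3b* exchanged places, with a ratio of 0.938 in place of 1.12, as did *Ces1e* and *Ces2e*, with 0.880 in place of 1.15. With the union of exons *Ces1f* fell behind *Ces2a* and *Ces3b*, the ratio of *Ces1f* to *Ces2a* being 0.961 in place of 1.36. The order of those members is therefore a matter of the length chosen. Ratios moved as well. That of *Ces2a* to *Ces2e* was lower over coding length, 5077 against 2906 per kb, and over the union of exons, 3603 against 1805 per kb. It was higher over windows found in no other gene, 5292 against 1863 per kb. The ratio of *Ces1d* to *Ces1g* was lower over coding length, 14974 against 4353 per kb, and over the union of exons, 10714 against 3089 per kb. Over such windows it was slightly higher, 13151 against 3188 per kb. The gap between *Ces2e* and *Ces2c* was 7.29 times with the longest transcript 5.36 times over windows found in no other gene and 8.50 times over the union of exons, and it was widest over coding length.

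All 10 members lie on chromosome 8 in mm10, in 2 separate clusters. The *Ces1* members occupy 238.294 kb between chr8:93099015 and chr8:93337308, all on the minus strand, in the order *Ces1c*, *Ces1d*, *Ces1e*, *Ces1f* and *Ces1g*. *Ces1c* spans chr8:93099015-93131283 in 13 exons and *Ces1d* spans chr8:93166068-93197838 in 14 exons. The span holds 8 annotated genes, and the 5 that are in the table are the 5 members. *Ces1b*, with a level of 1673 per kb, lies just before *Ces1c* on the chromosome and outside this span.

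The *Ces2* and *Ces3* members occupy 359.927 kb from *Ces2a* at chr8:104734003-104741634 to *Ces3b* at chr8:105083753-105093929, all 5 on the plus strand. Of 18 annotated genes in that span 11 are in the table, of which 10 are carboxylesterases. *Ces2c*, at 248 per kb, lies between *Ces2b*, whose mean normalized count of 6.03 was below the minimum, and *Ces2d-ps*, an annotated pseudogene with 2.94. *Ces2g* lies after *Ces2e* and had a level of 570 per kb, above that of *Ces2c*. The only gene in the table within this span that is not a carboxylesterase, *4932416K20Rik*, is listed at 0.

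**Figure D2:**
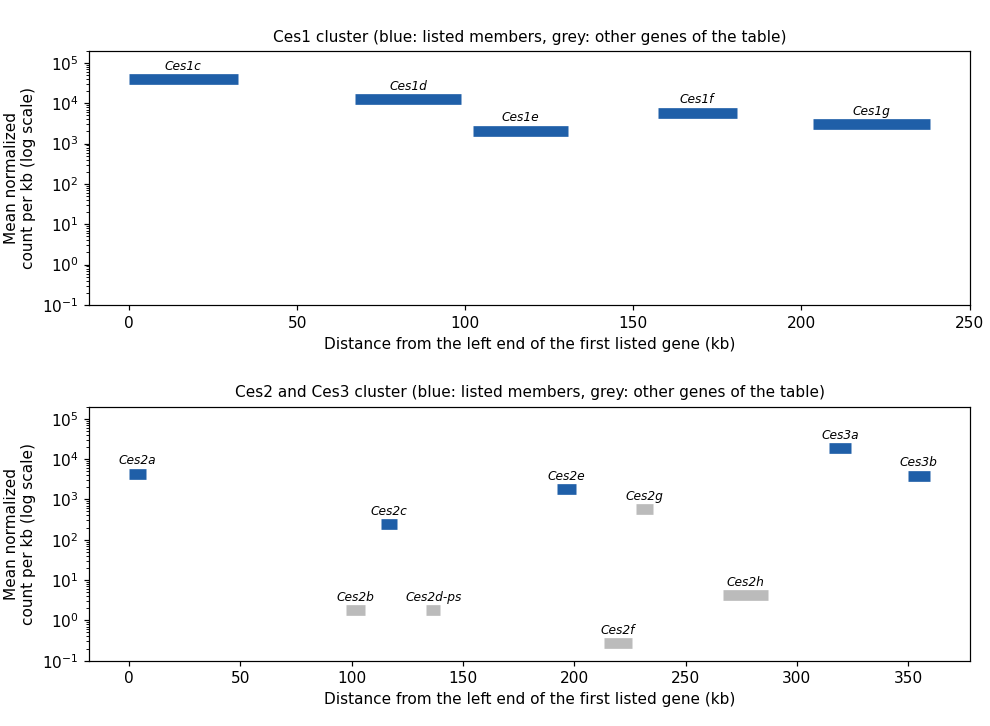
Level in mean normalized count per kb on a log axis against distance in kb from the left end of the first member, for the *Ces1* cluster above and the *Ces2* and *Ces3* cluster below, with bars as long as the genes. In the *Ces1* cluster all bars are members between 2079 and 39073 per kb, while in the other cluster members between 248 and 18369 per kb are interspersed with grey family genes at or below 570 per kb. A gene listed at 0 is not drawn.

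Of 10 other mouse carboxylesterases 9 were in the table and 4 were measured. *Ces1b* was the highest of them, with a mean normalized count of 3287 and a level of 1673 per kb, close to that of *Ces2e* at 1805 per kb and above that of *Ces2c* at 248 per kb, and *Ces1c* was 23.3 times as high per kb. *Ces2g* followed with a mean normalized count of 1629, *Ces4a* with 65.2 and *Ces2h* with 10.4. *Ces1a* at 6.15 and *Ces2f* at 0.495 were below the minimum. *Ces5a*, known from the epididymis, is listed at 0.

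The start regions of *Ces1b* and *Ces1c* are shown because, of the pairs of family genes compared, theirs aligned over the most bases, while their levels differ. Both sequences come from RefSeq on GRCm38.p6 and run 5′ to 3′ over the 100 bases before the annotated start on the minus strand. Capitals mark the letters that differ or have no partner within the printed windows, 16 in each. The capitals that open the *Ces1b* line lack a partner only because the *Ces1c* window is cut at 100 bases. Similar letters lie in *Ces1c* just before its window. The *Ces1b* window is chr8:93079941-93080040 and the *Ces1c* window is chr8:93131284-93131383.
Ces1b: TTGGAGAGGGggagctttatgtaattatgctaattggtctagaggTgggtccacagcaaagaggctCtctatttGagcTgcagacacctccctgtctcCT
Ces1c: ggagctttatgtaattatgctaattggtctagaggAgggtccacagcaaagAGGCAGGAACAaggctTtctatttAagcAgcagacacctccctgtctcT
Over the 250 bases before the start, 219 aligned bases were 95.0% identical between both genes. RefSeq gives *Ces1b* a further start upstream, the same as that of the GENCODE gene used for its level, so that the printed window lies largely within that transcript. From this further start 144 bases aligned with the *Ces1c* window, at 95.1% identity. The levels of 39073 per kb for *Ces1c* and 1673 per kb for *Ces1b* stood in a ratio of 23.3. The ratio was 24.0 when the same counts were divided by the number of 75-base windows found in no other gene. It was lower over coding length, with 42976 against 1932 per kb, and over the union of exons, with 30747 against 1673 per kb.

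The RefSeq table of start regions held 7 of the 10 members, and short motifs were searched on both strands of the 250 bases before the start. TATAAA, the core of the TATA box, was in the windows of *Ces1g* and *Ces3b*, and in 12.4% of all 32851 windows. TTGCNNAA, a core of the sites of C/EBP factors, was in those of *Ces1c*, *Ces2a* and *Ces2e*, and in 9.56% of all windows. AGGTCA, the core of many nuclear receptor sites, was in the window of *Ces2a* and in 14.0% of all windows, and GTTAAT, from the sites of HNF1, was in that of *Ces3b* and in 6.43%. A direct repeat of AGGTCA with 1 base between the copies was in 0 of 7 members and in 0.0335% of all windows. CACGTG, an E-box, and TGACNNNGC, the core of the antioxidant response element, were in 0 of 7 members and in 6.02% and 10.2% of all windows. Such letters describe the windows and are not sites of binding.

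Coding sequences were compared to see how far the members differ. Over the 31 pairs from different subfamilies the identity ran from 52.8% to 57.8%, with a median of 55.4%. Over the 14 pairs within a subfamily it ran from 71.6% for *Ces1c* and *Ces1f* to 95.3% for *Ces3a* and *Ces3b*, with a median of 78.0%. The 3 *Ces2* members were between 82.2% and 83.5% identical to each other. *Ces1d* and *Ces1g* were 81.6% identical, and *Ces1c* was closer to *Ces1b*, at 88.8%, than to any other *Ces1* member of the 10.

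**Figure D3:**
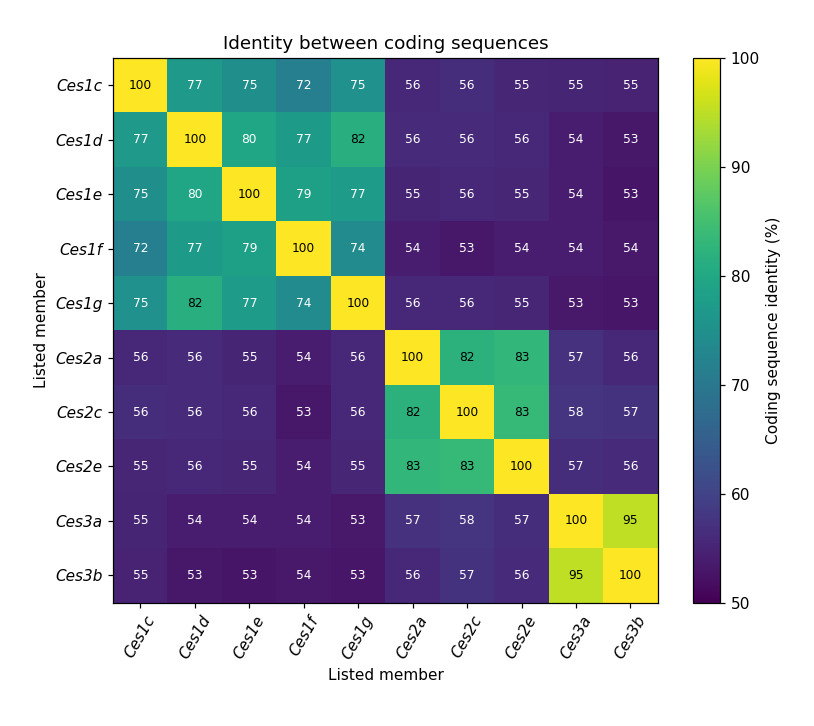
Identity in percent between the coding sequences of each pair of the 10 members, in colour and as whole numbers. The *Ces1*, *Ces2* and *Ces3* subfamilies stand out as blocks along the diagonal, with *Ces3a* and *Ces3b* at 95.3% and every pair from different subfamilies at or below 57.8%.

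Such similarity bears on the values, since a read that fits 2 genes cannot be given to either with certainty. Windows of 75 bases of each longest transcript were looked up in all annotated transcripts on both strands. *Ces1d*, *Ces1f* and *Ces1g* had 0 windows in common with any other gene, *Ces2e* had 0.343% and *Ces1e* had 1.05%. In *Ces1c* 6.73% of windows were shared, 85 of the 118 with *Ces1b*. *Ces3a* shared 18.3% and *Ces3b* 15.4% of their windows, most of them with each other. In *Ces2a* 14.8% were shared, all with *Gm7208*. *Ces2c* had 25.9% shared, 472 of 492 windows with the pseudogene *Ces2d-ps*, and is the least certain of the 10 values. Dividing the same counts by the number of remaining windows gave levels 1.03 to 1.40 times those over the whole transcript, and no member changed its place. Part of this rise is not from shared sequence, since a transcript has fewer windows than bases. *Ces1g*, with 0 shared windows, had 3188 in place of 3089 per kb.

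**Figure D4:**
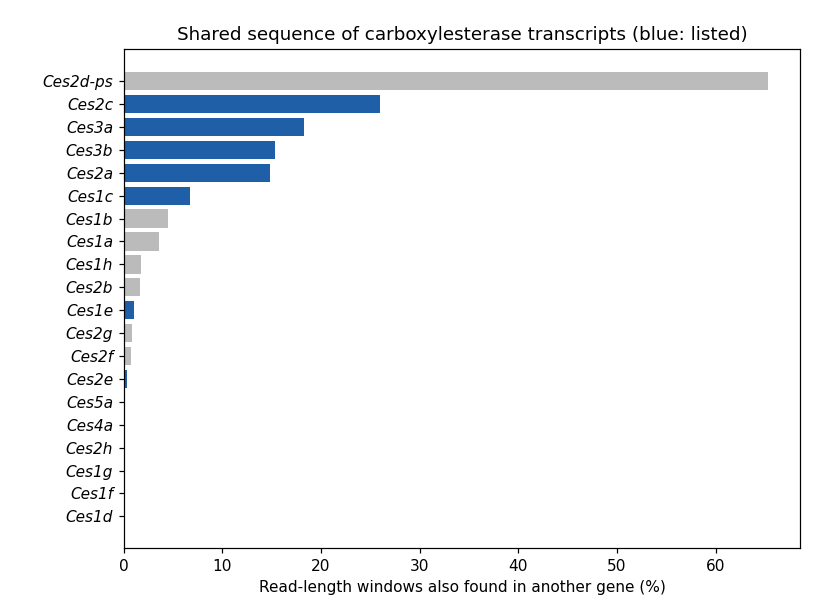
Share in percent of the 75-base windows of each longest carboxylesterase transcript that also occur in another annotated gene, with blue bars for the 10 members and grey bars for other family genes. *Ces2c* at 25.9%, *Ces3a* at 18.3%, *Ces3b* at 15.4% and *Ces2a* at 14.8% have the longest blue bars, and *Ces1d*, *Ces1f* and *Ces1g* have none.

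How reads with more than 1 possible position were counted is not given in the sources used here. Among the marker genes, *Hba-a1*, *Hbb-bs* and *Amy2a5*, which have near copies in the genome, are listed at 0, while 62.2%, 64.3% and 51.2% of their windows are shared. The share of such reads in the values of *Ces2c*, *Ces3a*, *Ces3b* and *Ces2a* was not tested. Exons of members hardly overlap with those of other genes, since *Ces3a* had 1 base in common with *Gm45724* on the other strand and the remaining members had 0.

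The members were then set beside a list of neutral lipid and ester hydrolases and their partners, which include lipid droplet and lipoprotein proteins. All 18 genes of this list were measured, with a median level of 1147 per kb, against 4098 per kb for the 10 carboxylesterases. The 9 other carboxylesterases among the genes used had a median of 3.11 per kb, so the median of 4098 stands for the 10 members only. Genes of this list with levels above that of the median member were *Apob*, the structural protein of very low density lipoprotein, at 13233 per kb, *Plin2*, a lipid droplet coat protein, at 11378 per kb, and *Aadac*, an ER esterase, at 8418 per kb. *Ces1d*, at 12665 per kb, was also above *Aadac*. Its level was 7.49 times that of *Pnpla2*, the adipose triglyceride lipase, and 76.1 times that of *Lipe*, the hormone-sensitive lipase. The lowest of the list were *Pnpla3* at 9.34 per kb and *Cel*, the bile salt-activated lipase, at 8.31 per kb. Other lengths were not tried for the genes of the lists. By mean normalized count, not divided by length, the middle members were *Ces3b* at 9274 and *Ces2a* at 8499. *Mttp* at 14753, *Lipa* at 10406 and *Mgll* at 10224 were also above both by that count.

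Of the hydrolases of drugs and other small esters and epoxides, 11 of 11 were measured, with a median level of 2605 per kb. *Ephx2*, the soluble epoxide hydrolase, had 21363 per kb, *Pon1*, the paraoxonase that circulates on high density lipoprotein, 17595 per kb, and *Ephx1*, the microsomal epoxide hydrolase, 8479 per kb. *Ces1c* had a level 2.22 times that of *Pon1* and 51.3 times that of *Bche*, the plasma butyrylcholinesterase, both of which also encode esterases of plasma. *Bche* had 762 per kb and *Ache* 7.58 per kb. None of these hydrolases, and none of the lipid list, reached the level of *Ces1c*. By mean normalized count, not divided by length, *Apob* at 184392 was above *Ces1c* at 71425.

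Of regulators known to act on carboxylesterase genes, 9 of 9 were measured, with a median level of 2246 per kb. *Hnf4a*, a nuclear receptor that maintains hepatocyte identity, had 5587 per kb, *Cebpa* 3684 per kb and *Ppara*, the receptor for fatty acids in fasting, 2858 per kb. The lowest were *Nfe2l2*, which encodes NRF2, at 841 per kb and the glucocorticoid receptor gene *Nr3c1* at 385 per kb. Only *Hnf4a* had a level above that of the median member. By mean normalized count, not divided by length, *Ppara* at 9756 and *Cebpa* at 9675 were also above the middle members *Ces3b* at 9274 and *Ces2a* at 8499.

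**Figure D5:**
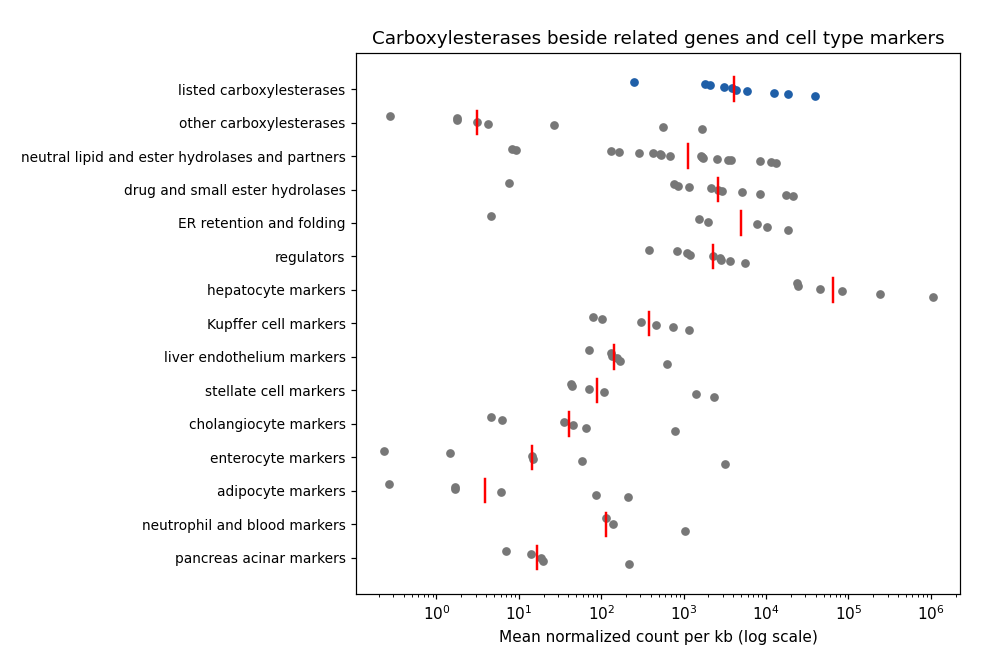
Level in mean normalized count per kb on a log axis for the genes of each list, with 1 point per gene, a red line at the list's median and blue points for the 10 carboxylesterases. The median of the 10 members, 4098 per kb, lies above that of the neutral lipid and ester hydrolases and partners at 1147 per kb. It also lies above the drug and small ester hydrolases at 2605 and the regulators at 2246 per kb. It lies below the hepatocyte markers, of which 4 of 6 exceed *Ces1c*. The 9 other carboxylesterases among the genes used have a median of 3.11 per kb, and the order was not taken over the whole family. Genes listed at 0 are not drawn.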

How the data were processed

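Hepatic mRNA of 3 WT and 3 PAI-1 heterozygous mice was sequenced as single-end reads. The authors aligned the reads to mm10 with STAR and ran DESeq2, and the submitters' processing notes also name HOMER. Versions, annotation, filters and strand setting are not given in the sources used here. The signal used is the mean normalized count in the authors' deposited table, that is, counts divided by size factors and averaged over all libraries. Its fold changes, standard errors, test statistics and p-values of the genotype comparison were not used, and the 6 columns of counts per animal were left out because their animal numbers match no label and cannot be tied to samples of the study. The edgeR comparison planned for the counts, with its alternatives, was therefore not run, and depth per library and the spread between mice were not analysed here. The summed mean over all genes was 30045982.

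Lengths, positions and coding sequences were read from the GENCODE M21 annotation of GRCm38 (mm10), to which 96.4% of the genes above a mean of 10 were matched by symbol. Levels are means divided by the length in kb of the longest protein-coding transcript, or of the longest transcript of a gene without one. The pooled mean carries no error. Coding sequences were aligned globally, with a match score of 1, a mismatch score of -1, a gap opening score of -5 and a gap extension score of -0.5, in place of the planned protein alignment. Windows were 75 bases long. Start regions came from RefSeq on GRCm38.p6. The window search, the coding sequence identity and the division by length were tested on simulated sequences or values, and the other steps were not. Calculations used Python 3.11.15, NumPy 2.4.6, pandas 2.3.3, Biopython 1.88 and Matplotlib 3.10.9.

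The members and the lists were chosen with earlier results of these data known. The genes named are the 10 members, the other mouse carboxylesterases, neighbours in the clusters and, of each list, the 3 highest and 2 lowest by level. *Pnpla2*, *Lipe*, *Mttp*, *Lipa*, *Mgll*, *Kdelr1*, the genes that share windows or exons and the genes next in rank were named after their values were seen. So were the markers *Alb*, *Dcn*, *Ecm1*, *Spp1*, *Fabp2*, *Alas2*, *Hba-a1*, *Hbb-bs* and *Amy2a5*.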

Additional observations from a re-analysis of the deposited data

How the results depend on the processing

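The level of *Ces1c* over that of *Ces2c*, 158 with the longest transcript, was 148 over coding length, 126 over windows found in no other gene and 145 over the union of exons, the last chosen after seeing the data. The members' share of all counts rose from 0.601% to 0.722% without the 10 genes of highest mean. The share of *Ces1c* in the members' sum, 42.7%, was 41.7% of the sum over all carboxylesterases of the table and 39.6% when counts were not divided by length. The median member was above 97.3% of genes when all genes above 0 were counted, in place of 96.4%. The median coding identity over all 45 pairs was 55.8% over the alignment and 58.3% over the shorter sequence. No paired analysis was possible because no column of counts matches a sample label. Such columns were not used at all, so the planned edgeR and DESeq2 fits, other scalings and filters of the counts and fits without single libraries were not run. No difference between neighbours in the order was tested, and the values of *Ces2c*, *Ces3a*, *Ces3b* and *Ces2a* are limited by shared sequence.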
